A study of Homo sapiens with 9 samples.

Results

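The genes described here are 10 chemokine genes of OVCAR4 cells, an established human ovarian serous adenocarcinoma line, taken by symbol from a table of 58735 genes: CXCL1, CXCL2, CXCL3, CXCL5, CXCL8, CXCL10, CXCL11, CCL2, CCL5 and CCL20. All 10 were found. RNA-seq covered 9 libraries in 3 groups of 3 biological replicates. The scr control cells, labeled WT, carried a pLKO.1 vector with a scramble shRNA. The MPZL3 knockdown cells carried shMPZL3 #1 or shMPZL3 #2, which are independent shRNAs against MPZL3. All 3 groups were made by lentiviral transduction, were selected with puromycin for 3 days and grew in the same insulin-supplemented medium, so transduction and selection were shared by the control. Each knockdown was a transduced population with 1 hairpin, and a hairpin's action on MPZL3 cannot be told apart from its action elsewhere within its own group.

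Chemokines are small secreted proteins that draw leukocytes along a gradient by binding G protein-coupled receptors. CXCL1, CXCL2, CXCL3, CXCL5 and CXCL8 carry a glutamate-leucine-arginine motif ahead of their first cysteines, bind CXCR2 (CXCL8 also CXCR1) and attract neutrophils, and in epithelial tumor cells they are classical NF-kB target genes induced by TNF and IL-1. CCL2 attracts monocytes through CCR2, and CCL20 attracts cells that carry CCR6, among them Th17 cells and immature dendritic cells, and both are also induced through NF-kB. CXCL10 and CXCL11 bind CXCR3 on activated T cells and NK cells and are induced by interferons, in part through interferon regulatory factors, and CCL5, which attracts T cells and monocytes, answers to both pathways. The first 7 genes are called NF-kB driven below and the last 3 interferon driven, as groupings from general knowledge rather than from these data.

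On hg38 with GENCODE release 29 annotation, 7 of the 10 genes lie on chromosome 4 in a pair of clusters. CXCL8 (ENSG00000169429) spans 73740506 to 73743716 and CXCL1 (ENSG00000163739) spans 73869393 to 73871242, both on the plus strand. CXCL5 (ENSG00000163735, 73995642 to 73998779), CXCL3 (ENSG00000163734, 74036589 to 74038807) and CXCL2 (ENSG00000081041, 74097035 to 74099293) follow on the minus strand. CXCL10 (ENSG00000169245, 76021117 to 76023497) and CXCL11 (ENSG00000169248, 76033682 to 76041415) lie farther along on the minus strand. CCL2 (ENSG00000108691, 34255218 to 34257203, plus strand) and CCL5 (ENSG00000271503, 35871491 to 35880793, minus strand) are on chromosome 17, and CCL20 (ENSG00000115009, 227805739 to 227817564, plus strand) is on chromosome 2.

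The promoters of members are shown because the comparison turns on which pathway drives them. RefSeq promoter sequences (GRCh38.p14, 250 bases before to 50 after each start) were given for 8 of the 10 genes, all but CCL2 and CCL5. The stretches below run 5′ to 3′ on the strand of the gene and end at the last base before the RefSeq start. Capitals mark matches to an NF-kB motif (GGANTTTCC), an interferon-stimulated response element (GAAANNGAAA) or an AP-1 motif (TGANTCA), each searched on both strands, and the 3 motifs did not overlap one another in these windows.
CXCL1, chr4:73869243-73869392, plus strand: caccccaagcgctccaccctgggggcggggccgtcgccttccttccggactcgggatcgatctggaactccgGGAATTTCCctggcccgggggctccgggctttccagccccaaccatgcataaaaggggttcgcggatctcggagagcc
CXCL2, chr4:74099196-74099345, minus strand: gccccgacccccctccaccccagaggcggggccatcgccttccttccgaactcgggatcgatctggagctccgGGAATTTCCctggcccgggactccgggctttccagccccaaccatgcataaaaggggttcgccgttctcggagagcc
CXCL3, chr4:74038690-74038839, minus strand: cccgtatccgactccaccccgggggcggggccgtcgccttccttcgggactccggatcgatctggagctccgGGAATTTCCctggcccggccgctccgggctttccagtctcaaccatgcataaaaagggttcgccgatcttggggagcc
CXCL5, chr4:73998678-73998827, minus strand: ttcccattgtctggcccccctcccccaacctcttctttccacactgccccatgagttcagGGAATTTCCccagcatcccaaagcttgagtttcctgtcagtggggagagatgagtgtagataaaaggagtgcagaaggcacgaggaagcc
CXCL8, chr4:73740419-73740568, plus strand: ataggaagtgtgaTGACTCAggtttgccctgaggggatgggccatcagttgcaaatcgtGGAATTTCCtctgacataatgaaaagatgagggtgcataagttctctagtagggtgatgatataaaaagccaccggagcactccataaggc
CCL20, chr2:227813692-227813841, plus strand: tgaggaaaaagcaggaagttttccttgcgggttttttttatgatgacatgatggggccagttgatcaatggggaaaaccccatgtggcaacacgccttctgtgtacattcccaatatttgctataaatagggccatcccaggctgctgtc
CXCL10, chr4:76023498-76023728, minus strand: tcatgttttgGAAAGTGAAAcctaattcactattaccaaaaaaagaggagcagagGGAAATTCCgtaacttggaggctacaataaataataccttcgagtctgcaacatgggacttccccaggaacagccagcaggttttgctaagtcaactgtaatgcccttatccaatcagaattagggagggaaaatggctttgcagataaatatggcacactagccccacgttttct
CXCL11, chr4:76036071-76036220, minus strand: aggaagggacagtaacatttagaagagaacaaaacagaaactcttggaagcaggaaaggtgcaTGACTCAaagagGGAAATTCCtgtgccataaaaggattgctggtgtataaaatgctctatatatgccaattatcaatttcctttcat

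The NF-kB motif was present in 7 of these 8 promoters and in 1.64% of the 35116 promoters of the table. In CXCL1, CXCL2, CXCL3, CXCL5 and CXCL8 its first base was 78, 77, 78, 90 and 91 bases before the start, on the strand of the gene and with the same 9 bases. In CXCL10 and CXCL11, which are counted here as interferon driven, it was present on the opposite strand, from 176 and 75 bases before the start. The interferon element was matched in 1 member, CXCL10, from 221 bases before the start, and in 3.57% of all promoters. The AP-1 motif was matched in CXCL8, from 137 bases before the start, and in CXCL11, from 87 bases before it, and in 7.71% of all promoters. CCL20 had no match to these 3 patterns in its window. Looser forms of the sites were not searched, so a window without a match can still hold such a form. The shared stretch of CXCL1, CXCL2 and CXCL3 goes beyond the motif: their promoters were 70.6% to 82.5% identical in pairs, and the other pairs among the 5 neutrophil-attracting genes 43.0% to 53.2%. A motif match is a description of letters and was not tested for binding.

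The targeted gene, MPZL3, had 536, 611 and 587 normalized counts in the scr control. The values were 119, 143 and 123 with shMPZL3 #1 and 284, 380.4 and 271 with shMPZL3 #2, where a normalized count is the raw count scaled to the mean library size. It fell with both, by 2.17 (SE 0.16, edgeR quasi-likelihood test with Benjamini-Hochberg adjustment, adjusted p = 3.73e-07) and by 0.89 (SE 0.15, adjusted p = 0.000562) on the log2 scale, and was higher with shMPZL3 #2 than with shMPZL3 #1 by 1.28 (SE 0.16, adjusted p = 5.72e-05). Total counts were 15040102 to 27835841 per library. Epithelial and ovarian carcinoma markers (10 genes, among them PAX8 and KRT7) summed to 5369 to 6665 CPM (counts scaled to library size) over the 9 libraries, with WT1 at 2.25 to 12.9 normalized counts. Of the 9 of these markers tested, 3 were called higher (CDH1, KRT7 and PAX8) and 2 lower (MECOM and MUC16) with shMPZL3 #1. With shMPZL3 #2, 0 were called higher and 1 lower (MECOM). Of all genes tested, 16.8% were called higher and 15.3% lower with shMPZL3 #1, and 9.36% and 5.8% with shMPZL3 #2. Of 10 leukocyte markers, the B cell gene MS4A1 and the neutrophil genes FCGR3B and CSF3R were at 0 in every library, and CD3E, CD68 and LYZ were at 0 in the scr control and shMPZL3 #1. The summed leukocyte markers were 0.971 to 1.61 CPM in scr control cells, 2.81 to 4.21 with shMPZL3 #1 and 2.61 to 4.59 with shMPZL3 #2. ITGAM and CD14 were called higher with both. PTPRC, the pan-leukocyte gene CD45, had means of 10.2, 9.09 and 15.4 normalized counts in that order. Stromal and endothelial markers (6 genes, DCN at 0) summed to 13.4 to 14.1, 13.6 to 17.3 and 23.2 to 28.3 CPM in the same order. Of the 4 tested, LUM was called higher with shMPZL3 #1 (log2 fold change 0.79), and LUM and CDH5 with shMPZL3 #2 (1.45 and 1.05). With either shRNA 0 were called lower. Between the shRNAs CDH5 was higher with shMPZL3 #2 by 1.39 (SE 0.21, edgeR adjusted p = 0.000395), and LUM was not called. The part of these genes in the chemokine results was not tested. In bulk RNA, more expressing cells and more RNA per cell cannot be told apart.

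The chemokines differed widely in level. Per length, as RPKM (reads per kilobase scaled to library size), the scr control had CXCL1 highest at 44.8 ± 24.1, followed by CCL2 at 27.3 ± 10.6, CXCL8 at 19.5 ± 8.99 and CXCL5 at 9.6 ± 4.64 (mean ± SD, n = 3 for each group here and below). CCL20 at 2.5 ± 1.39, CXCL3 at 0.996 ± 0.336, CXCL2 at 0.916 ± 0.413 and CXCL10 at 0.665 ± 0.476 came next, with CCL5 at 0.186 ± 0.218 and CXCL11 at 0.023 ± 0.0199 lowest. In that order CXCL1, CCL2 and CXCL8 did not differ from their neighbor by more than the SD, nor did CXCL3, CXCL2 and CXCL10, nor CCL5 and CXCL11. CXCL1, CXCL5, CXCL8 and CCL2 together held 93.6% to 95.6% of the counts of the 10 genes in every library.

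The order changed between the shRNAs. With shMPZL3 #1, CXCL10 reached 2.84 ± 0.799 RPKM with a mean above those of CXCL3, CXCL2 and CCL20 (1.94 ± 0.369, 1.84 ± 0.374 and 1.36 ± 0.374), although its libraries overlapped those of CXCL3 and CXCL2, and those of CXCL2 overlapped those of CCL20. With shMPZL3 #2, CXCL1 reached 338 ± 53.6 RPKM, CXCL8 125 ± 37.4, CXCL5 101 ± 35.4 and CCL2 85.8 ± 12.4, where CXCL8, CXCL5 and CCL2 did not differ from their neighbor by more than the SD. CCL20 at 18.8 ± 6.36, CXCL3 at 9.44 ± 0.357 and CXCL2 at 6.43 ± 1.26 were then all above CXCL10 at 3.52 ± 1.19, with no overlap between libraries of neighbors. CCL5 stood at 0.708 ± 0.241 RPKM with shMPZL3 #1 and 1.85 ± 0.506 with shMPZL3 #2, and CXCL11 at 0.0971 ± 0.105 and 0.388 ± 0.28. All 10 genes summed to 87.7, 241 and 240.4 CPM in the 3 scr control libraries, 260.2, 267 and 241 with shMPZL3 #1, and 1067, 1538 and 1050.2 with shMPZL3 #2.

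**Figure D1:**
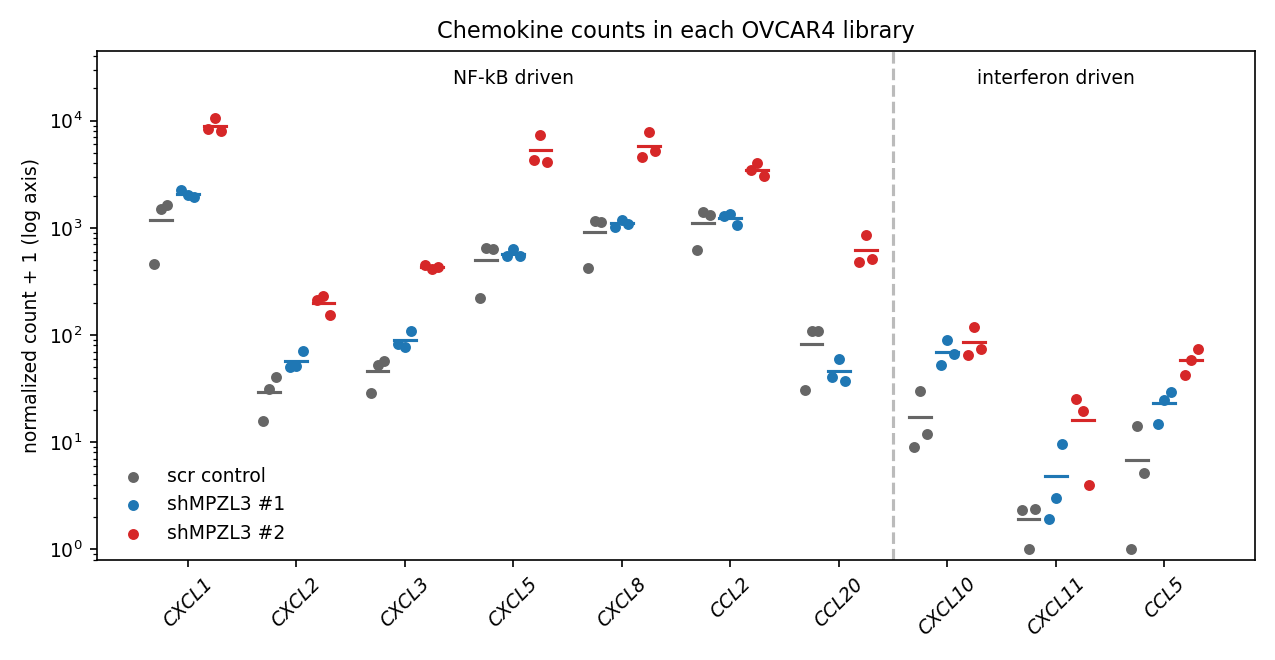
Normalized counts plus 1 (log axis) of the 10 chemokine genes; each point is 1 library, each bar the mean of the 3 libraries of a group, and the dashed line separates NF-kB driven from interferon driven genes. The shMPZL3 #2 points of the 7 NF-kB driven genes lie above all other points of the same gene, and the lowest scr control point of each of these 7 genes is replicate 1.

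With shMPZL3 #1, the T cell attracting chemokines CXCL10 and CCL5 rose by 4.01 and 3.39-fold and the neutrophil attractants CXCL1, CXCL2 and CXCL3 by 1.73, 2.00 and 1.94-fold, with overlapping intervals, and CXCL5, CXCL8 and CCL2 were not called. Of the 9 chemokines that passed the filter on low counts (CXCL11 did not), 5 were called higher and 0 lower at an adjusted p under 0.05, where 16.8% and 15.3% of the 16928 genes tested were called higher and lower. Among NF-kB driven genes 3 of 7 were called, with a median log2 fold change of 0.27, and among interferon driven genes both tested of 3, with a median of 1.88; the median of all genes tested was 0.01. All 3 shMPZL3 #1 libraries were above all 3 scr control libraries for CXCL1, CXCL2, CXCL3, CXCL10 and CCL5, as for 23.9% of genes tested. At an unadjusted p under 0.05 in edgeR's quasi-likelihood test, CCL20 was the 1 member on the lower side, and DESeq2 called 0 members lower.

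CXCL10 had 7.98, 29.2 and 11 normalized counts in the scr control and 51.3, 89.4 and 65.3 with shMPZL3 #1. The groups did not overlap, and the log2 fold change was 2.00 (SE 0.41, edgeR adjusted p = 0.00133), or 4.01-fold. Without scr control replicate 2, the highest control, it was 2.84 and still called (adjusted p = 0.000422). CCL5 had 0, 13.2 and 4.12 normalized counts against 13.7, 23.8 and 28.4, a narrow separation between scr control replicate 2 and shMPZL3 #1 replicate 1. Its log2 fold change was 1.76 (SE 0.62, edgeR adjusted p = 0.0385), from 17 and 69 raw counts over the groups, and the call was lost when 1 of 4 libraries (scr control replicate 1 or 3, shMPZL3 #1 replicate 2 or 3) was left out, with adjusted p from 0.0714 to 0.125, and with only these 2 groups in the fit (0.0544). Without scr control replicate 2 the log2 fold change was 3.35 (adjusted p = 0.00568), and without replicate 1 it was 1.24. CXCL11 had 1, 0 and 1 raw counts in the scr control and 1, 2 and 9 with shMPZL3 #1. That is a ratio of CPM of 4.83, with an exact interval of 1.07 to 44.4 that covers counting error only, and 9 of the 12 counts came from 1 library.

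Of the CXCR2 ligands, CXCL1, CXCL2 and CXCL3 were called with shMPZL3 #1, although their differences from CXCL5 and CXCL8 were not tested and the intervals of CXCL1 (0.20 to 1.39), CXCL8 and CXCL5 overlap. CXCL1 had 456, 1490.3 and 1631 normalized counts in the scr control and 2257, 2011 and 1945 with shMPZL3 #1, a log2 fold change of 0.79 (SE 0.28, edgeR adjusted p = 0.039). CXCL2 had 14.6, 30.2 and 39.9 against 49.4, 50.7 and 70.0, a log2 fold change of 1.00 (SE 0.31, edgeR adjusted p = 0.0197). CXCL3 had 27.9, 51.9 and 56.4 against 81.5, 76.5 and 108, a log2 fold change of 0.95 (SE 0.23, edgeR adjusted p = 0.00466). None of these 3 genes overlapped between groups, yet scr control replicate 1 was the lowest library of each. Without that library the log2 fold changes were 0.40 for CXCL1 (edgeR adjusted p = 0.0377), 0.71 for CXCL2 (0.0964) and 0.71 for CXCL3 (0.0285). The CXCL1 call was also lost without any 1 of the shMPZL3 #1 libraries (adjusted p from 0.0572 to 0.0914) and with DESeq2 (0.175), and the CXCL2 call without shMPZL3 #1 replicate 3 (0.0899).

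CXCL5 and CXCL8, the latter better known as IL-8, were not called with shMPZL3 #1. CXCL5 had 221, 640.4 and 639 normalized counts in the scr control and 540.1, 639.9 and 542 with shMPZL3 #1, with a log2 difference of 0.19 and a 95% interval of -0.41 to 0.79 (edgeR adjusted p = 0.649). CXCL8 had 424, 1167 and 1136 against 1008, 1192 and 1091, a log2 difference of 0.27 with an interval of -0.29 to 0.82 (adjusted p = 0.471). For both genes the shMPZL3 #1 libraries overlapped the range of scr control replicates 2 and 3. The monocyte attractant CCL2 had 618, 1417 and 1310.2 against 1302, 1344 and 1055, a log2 difference of 0.14 with an interval of -0.30 to 0.58 (edgeR adjusted p = 0.647). Without scr control replicate 1 the values of CXCL5, CXCL8 and CCL2 turned to -0.16, -0.08 and -0.15, again with no call.

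CCL20 stood apart with shMPZL3 #1, at 29.3, 108 and 109 normalized counts in the scr control and 39.4, 58.6 and 35.9 with the shRNA. The groups overlapped through scr control replicate 1, and the log2 difference of -0.90 (SE 0.37) was not called (edgeR adjusted p = 0.0753). Without scr control replicate 1 it was -1.28 and passed the test (edgeR adjusted p = 0.00367), it was also called with no filter on low counts (adjusted p = 0.000469), and it was not called by DESeq2 (adjusted p = 0.209). Relative to CXCL1 in the same library, CCL20 counts were 0.0641 to 0.0722 in scr control cells, 0.0174 to 0.0292 with shMPZL3 #1 and 0.0574 to 0.0805 with shMPZL3 #2.

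**Figure D2:**
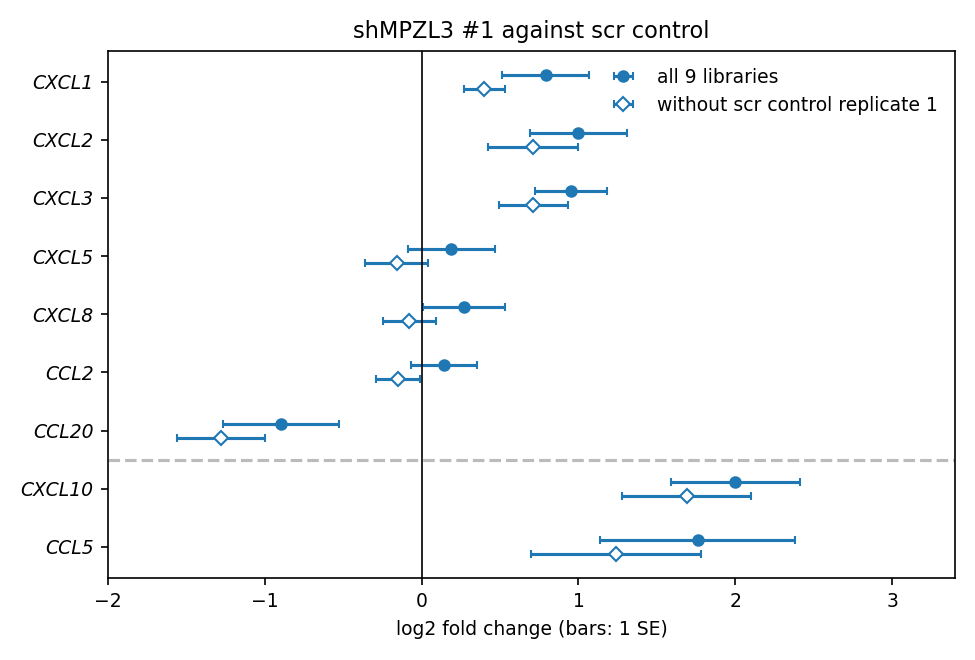
Log2 fold change of shMPZL3 #1 against scr control for the 9 chemokines tested, with all 9 libraries (filled circles) and without scr control replicate 1 (open diamonds); bars are 1 SE. Leaving that library out moved all 9 values down, from 2.00 to 1.69 for CXCL10 and from 0.27 to -0.08 for CXCL8.

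With shMPZL3 #2 all 9 chemokines tested rose, the neutrophil attractants by 6.42 to 10.5-fold, where 9.36% of genes tested were called higher and 5.8% lower. The median log2 fold change was 2.89 for the 7 NF-kB driven genes and 2.73 for the 2 interferon driven genes tested, against 0.00 for all genes. In all 10 genes, CXCL11 included, the 3 shMPZL3 #2 libraries were above the 3 scr control libraries, as for 18.7% of genes tested. No member was called lower or had an unadjusted p under 0.05 on the lower side. These 9 calls were the same without any 1 library and under every other setting tried.

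CXCL5 had the largest log2 fold change of the 9. It stood at 4273, 7406 and 4144 normalized counts with shMPZL3 #2, a log2 fold change of 3.39 (SE 0.29, edgeR adjusted p = 1.5e-06). It ranked 40 from the top of the 16928 genes tested. CXCL3 followed at 446, 414 and 431, a log2 fold change of 3.23 (SE 0.22, edgeR adjusted p = 2.51e-07). Its 3 libraries were close together, with a SD of 16.3 around 430.3. CXCL1 had 8381, 10626 and 7980.4 normalized counts, a log2 fold change of 2.91 (SE 0.29, edgeR adjusted p = 7.44e-06), and remained the most abundant of the 10 per length. CXCL2 had 212, 228 and 154, a log2 fold change of 2.80 (SE 0.29, adjusted p = 8.43e-06). CXCL8 had 4549, 7836 and 5175, a log2 fold change of 2.68 (SE 0.27, adjusted p = 7.44e-06). For CXCL5 and CXCL8, shMPZL3 #2 replicate 2 was the high library.

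The CC chemokines also rose with shMPZL3 #2. CCL20 had 481, 855 and 510.3 normalized counts, a log2 fold change of 2.89 (SE 0.33, edgeR adjusted p = 1.83e-05), with replicate 2 again highest. CCL2 had 3443, 4031 and 3023, a log2 fold change of 1.65 (SE 0.21, edgeR adjusted p = 5.55e-05). That 3.13-fold change was below those of the other 8 genes tested. CCL5 had 41.5, 57.8 and 72.9 normalized counts, a log2 fold change of 3.15 (SE 0.59, edgeR adjusted p = 0.00146), from a scr control with 17 counts in all and 0 in 1 library. The ratio of its CPM was 8.82, with an exact interval of 5.37 to 15.4 for counting error only. The spread between controls was wider than that: without scr control replicate 2, the library with 14 of the 17 counts, the log2 fold change was 4.74 (edgeR adjusted p = 0.00054).

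CXCL10 had 63.8, 118 and 73.7 normalized counts with shMPZL3 #2, a log2 fold change of 2.31 (SE 0.40, edgeR adjusted p = 0.000855) or 4.96-fold. Without scr control replicate 2, the highest of the 3 controls, it was 3.15, and it was still called (adjusted p = 0.000301). CXCL11 had 24, 18 and 4 raw counts, against 1, 0 and 1 in the scr control, a ratio of CPM of 17.7 with an exact counting interval of 4.62 to 150. With no filter on low counts its log2 fold change was 4.02 (edgeR adjusted p = 0.00444), and with shMPZL3 #1 it was 2.07 (adjusted p = 0.295). With 60 counts over 9 libraries, CXCL11 is at the limit of what this depth can show.

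**Figure D3:**
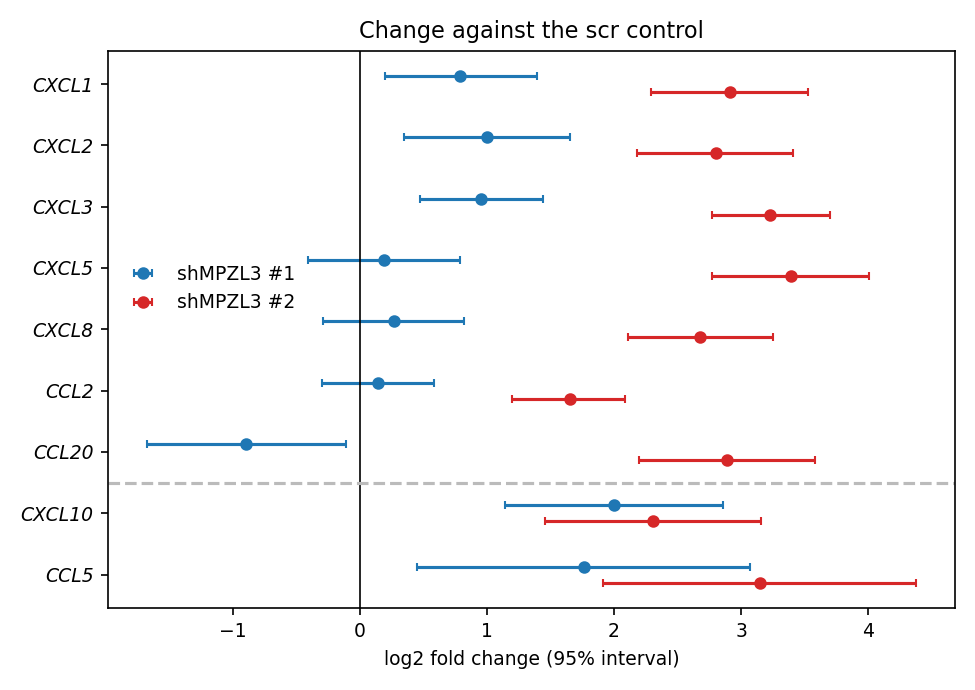
Log2 fold change against scr control with its 95% interval for the 9 chemokines tested, for shMPZL3 #1 (blue) and shMPZL3 #2 (red); both use the same 3 control libraries. For the 7 NF-kB driven genes above the dashed line the intervals of the shRNAs do not overlap, and for CXCL10 and CCL5 below it they do.

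The direct comparison of the shRNAs, which leaves the scr control out of the difference, gave a call for all 7 NF-kB driven genes and for neither interferon driven gene tested. No test set the pathways against each other, and CCL5 differed about as much as CCL2, the NF-kB driven gene with the smallest difference. The 7 genes were higher with shMPZL3 #2 than with shMPZL3 #1, with a median log2 difference of 2.28, while neither CXCL10 nor CCL5 was called, with a median of 0.85, where 7.56% of genes tested were called higher and 7.56% lower. The median of all genes was 0.01, and 0 members were called lower or had an unadjusted p under 0.05 on that side. The shMPZL3 #2 libraries were above all shMPZL3 #1 libraries for the 7 NF-kB driven genes and CCL5, as for 15.4% of genes tested. The 7 calls were the same under every alternative tried.

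CCL20 differed most, by 3.78 (SE 0.34, edgeR adjusted p = 4.12e-06) or 13.8-fold, and ranked 5 from the top of all genes tested. CXCL5 followed with 3.20 (SE 0.29, adjusted p = 4.12e-06) or 9.19-fold, at rank 10. CXCL8 differed by 2.42 (SE 0.27), CXCL3 by 2.28 (SE 0.20), CXCL1 by 2.12 (SE 0.28), CXCL2 by 1.80 (SE 0.26) and CCL2 by 1.5 (SE 0.21), with edgeR adjusted p from 3.48e-06 to 0.000274. The genes that were not called with shMPZL3 #1 (CXCL5, CXCL8, CCL2 and CCL20) included both the largest and the smallest of these differences.

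CXCL10 differed between the shRNAs by 0.31 on the log2 scale, with a 95% interval of -0.42 to 1.03 (edgeR adjusted p = 0.604), so differences within these bounds could not be resolved. Its shMPZL3 #2 libraries (63.8 to 118 normalized counts) overlapped those of shMPZL3 #1 (51.3 to 89.4). CCL5 differed by 1.39 with an interval of 0.36 to 2.42, and missed the threshold (edgeR adjusted p = 0.0648). It passed with no filter on low counts (adjusted p = 0.00724), with only these 2 groups in the fit (0.0234) and with DESeq2 (0.0435), and its adjusted p ranged from 0.00724 to 0.232 over all alternatives. CXCL11 had 46 raw counts with shMPZL3 #2 and 12 with shMPZL3 #1, a ratio of CPM of 3.66 with an exact counting interval of 1.91 to 7.59, but shMPZL3 #2 replicate 3 with 4 counts was below shMPZL3 #1 replicate 3 with 9.

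**Figure D4:**
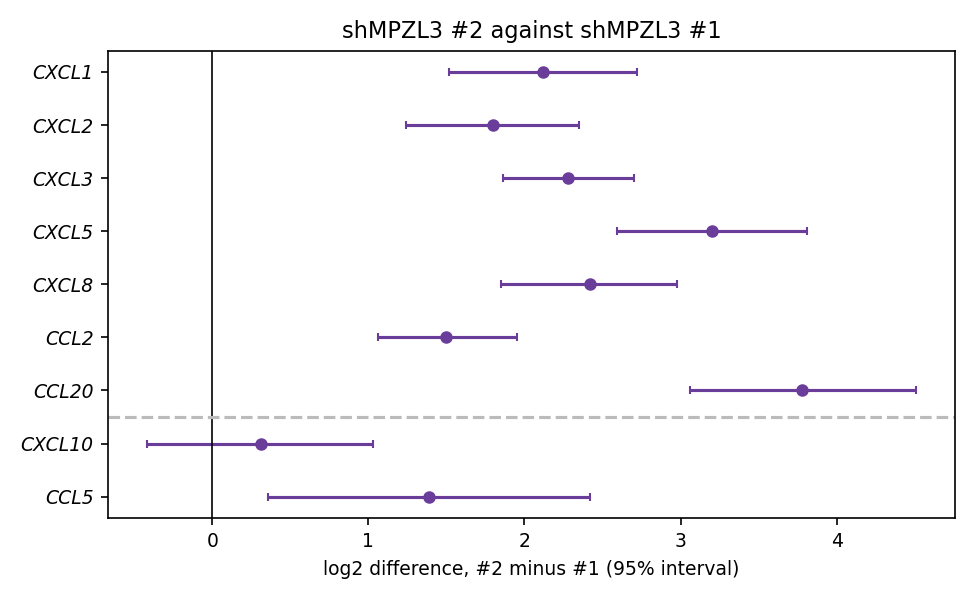
Log2 difference of shMPZL3 #2 minus shMPZL3 #1 with its 95% interval; genes above the dashed line are NF-kB driven, those below it interferon driven. CCL20 is highest at 3.78 and CXCL10 lowest at 0.31, with an interval that includes 0.

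Averaged over the list in each library (log2 CPM, prior count 2), the NF-kB driven chemokines were at 2.58, 3.94 and 4 in scr control cells, 3.92, 4.05 and 3.98 with shMPZL3 #1, and 6.28, 6.70 and 6.20 with shMPZL3 #2. Apart from scr control replicate 1, the scr control and shMPZL3 #1 libraries lay within 3.92 to 4.05. The 3 interferon driven genes were at -2.34, -1.06 and -1.67 in scr control cells, -0.61, 0.04 and 0.44 with shMPZL3 #1, and 1.04, 1.36 and 0.57 with shMPZL3 #2, with no overlap between any groups. Without CCL5 the shRNAs overlapped, at -0.72, -0.11 and 0.37 for shMPZL3 #1 and 1.02, 1.26 and -0.08 for shMPZL3 #2. The interferon driven share of the counts of the 10 genes was 0.334% to 0.858% in scr control cells, 1.23% to 2.1% with shMPZL3 #1 and 0.591% to 0.694% with shMPZL3 #2. It was thus higher in all 3 shMPZL3 #1 libraries than in the other 6.

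**Figure D5:**
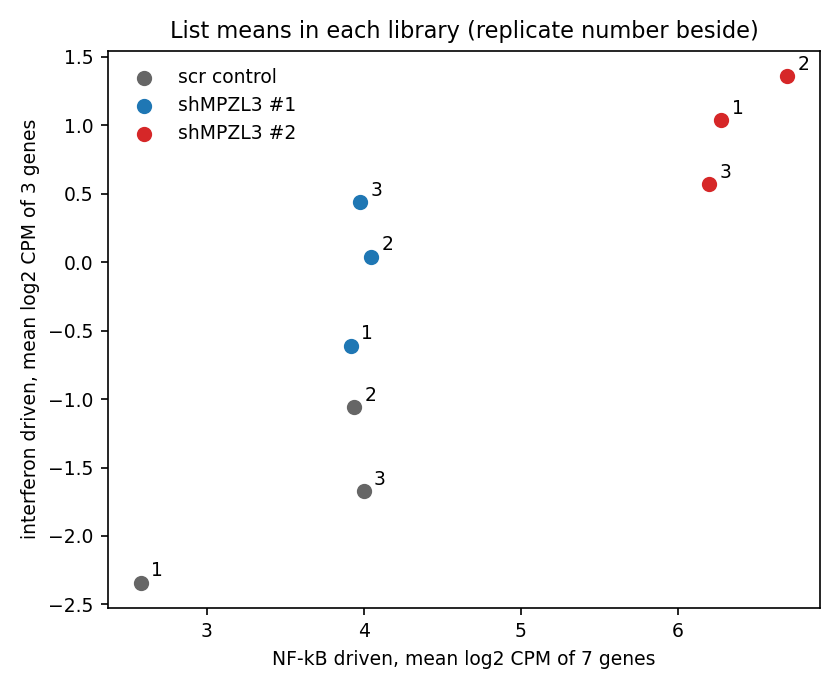
Mean log2 CPM (prior count 2) of the 7 NF-kB driven genes (x axis) and the 3 interferon driven genes (y axis) in each library, with the replicate number beside each point. The shMPZL3 #1 points lie above scr control replicates 2 and 3 at nearly the same x value (3.92 to 4.05), the shMPZL3 #2 points lie to the right (6.20 to 6.70), and scr control replicate 1 lies apart at 2.58.

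The methods of the study treat both shRNAs as a single knockdown condition, compared with DESeq2. Its results further require genes to be altered by both shRNAs, with a log2 limit of 1, and shared with the OVCA433 line. With the 6 knockdown libraries in 1 group, edgeR called 5 of the 9 chemokines tested higher (CXCL1, CXCL2, CXCL3, CXCL10 and CCL5). It called 0 lower, where 9.36% and 6.4% of genes tested were called. CXCL10 changed by 2.18 on the log2 scale (SE 0.40, edgeR adjusted p = 0.00405) and CXCL3 by 2.51 (SE 0.65, adjusted p = 0.0224). CXCL5, CXCL8, CCL2 and CCL20 were not called (adjusted p from 0.0575 to 0.167), with log2 fold changes of 1.08 to 2.54 and SEs of 0.42 to 0.95. Of 17 alternative settings, 11 gave the same outcome for CXCL5 and for CXCL8, and 15 for CCL2 and for CCL20. All 6 knockdown libraries were above all 3 scr control libraries for the 5 called genes, as for 11.8% of genes tested, and the exact two-sided permutation test gave each 0.0238, the smallest p it can give for 6 against 3. For 3 against 3 that smallest p is 0.1, reached by all 10 genes for shMPZL3 #2 against scr control. When scr control replicate 1, 2 or 3 was left out, the grouped test called 1, 2 and 1 members.

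After the group means were removed, log2 CPM of the NF-kB driven genes correlated over the 9 libraries with Pearson's r from 0.65, between CXCL3 and CCL20, to 0.99, between CXCL5 and CXCL8. CXCL10 and CCL5 correlated with these 7 genes at 0.36 to 0.80 and with each other at 0.82, and CXCL11 correlated with the other genes at -0.21 to 0.42. These are descriptions of 9 libraries in which scr control replicate 1 is low for all 7 NF-kB driven genes. CXCL1, CXCL2 and CXCL3 also share sequence: 5.73%, 9.24% and 5.26% of their 50-base exonic windows occurred in another of the 3, and 0% of their 100-base windows. The read length was not given in the sources used here, so reads of these 3 genes could be uncertain to that extent. CCL5 holds repeat-like sequence, with 15.96% of 50-base and 7.5% of 100-base windows found in other genes, and its counts are uncertain to the same degree. CXCL10 and CXCL11 overlap ART3, which had 19 counts over the 9 libraries, and CCL5 overlaps an antisense gene with 8 counts, and without strand those reads cannot be told apart.

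Outside the 10 members, the 5 protein-coding genes whose log2 CPM was most like that of CXCL8 over the 9 libraries were ARNTL2, SNTB1, TLL1, TGM2 and FAM107B (r from 0.972 to 0.989, among 11909 genes). TGM2, a transglutaminase that crosslinks proteins, had mean normalized counts of 833 in scr control cells, 908 with shMPZL3 #1 and 2874 with shMPZL3 #2. For CXCL10 they were GOLT1A, LYN, SLFN5, MMP10 and TGFA (r from 0.967 to 0.981). LYN, a Src family kinase, had 1198, 1903 and 2082, and MMP10, a matrix metalloproteinase, 40.2, 146 and 176. These genes were selected for the likeness of their pattern, which is given without a test.

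The lists that follow are read against all genes tested, of which 16.8% were called higher and 15.3% lower with shMPZL3 #1, 9.36% and 5.8% with shMPZL3 #2, and 7.56% in each direction between the shRNAs. Among the cytokines that induce chemokines, 7 of 18 passed the filter, and 4 were called higher and 1 lower with each shRNA. IL1A, a primary inducer of CXCL8 and CXCL1 in epithelium, had 27.3 ± 8.56 normalized counts in scr control cells, 124 ± 35.2 with shMPZL3 #1 and 101 ± 45.3 with shMPZL3 #2, and was called higher with both (log2 fold changes 2.19 and 1.90, edgeR adjusted p = 0.00029 and 0.00197). IL1B was called higher with both as well (1.93 and 1.64). Neither differed between the shRNAs at the threshold, with -0.29 each (adjusted p = 0.598 and 0.667). TNF had 165 ± 54.6, 322 ± 52.4 and 508 ± 40.4, rose with both and was higher with shMPZL3 #2 by 0.66 (SE 0.19, edgeR adjusted p = 0.0265). IL33, an alarmin, rose with shMPZL3 #1 by 1.53 and was lower with shMPZL3 #2 than with shMPZL3 #1 by 1.84. IFNB1, a type I interferon gene, had at most 1 count in any library, and its group means were 0, 0.305 and 0 normalized counts. IFNE, another type I interferon gene, had group means of 9.57, 7.9 and 6.04 and did not pass the filter. IL1RN, the secreted antagonist of the IL-1 receptor, rose with shMPZL3 #2 (1.67, adjusted p = 0.00154) and was not called with shMPZL3 #1 (0.61, adjusted p = 0.167).

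The NF-kB subunits, adaptors and inhibitors numbered 28, all tested. With shMPZL3 #1, 15 were called higher and 1 lower (16.8% and 15.3% of all genes), and with shMPZL3 #2, 11 higher and 0 lower (9.36% and 5.8%). In the direct comparison 1 gene, TNFAIP3, was called higher with shMPZL3 #2 and 1, CYLD, lower, where 7.56% of all genes were called in each direction, and the median log2 difference was -0.04. TNFAIP3, an NF-kB target that ends NF-kB signaling, had 1417 ± 309.9 normalized counts in scr control cells, 1831 ± 187 with shMPZL3 #1 and 3074 ± 117 with shMPZL3 #2, and differed between the shRNAs by 0.75 (SE 0.13, edgeR adjusted p = 0.00122). NFKBIA, the inhibitor IkB-alpha and itself an NF-kB target, rose by 0.35 and 0.60. RELB, a subunit of the noncanonical pathway, rose by 1.07 and 0.93, BIRC3 by 2.06 and 2.12, TRAF1 by 1.81 and 1.56 and IRAK2 by 2.05 and 1.62. These 4 did not differ between the shRNAs at the threshold (adjusted p from 0.431 to 0.927). Scr control replicate 1 was also the lowest control for TNFAIP3, NFKBIA, RELB, BIRC3 and IRAK2, but not for TRAF1. TNFAIP3 had 1064, 1643 and 1544 normalized counts in the scr control and 1628, 1871 and 1996 with shMPZL3 #1, and these groups overlapped. Calls with shMPZL3 #1 in this and the other lists are not given without that library.

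Calls on the interferon side of the pathway were mostly higher with both shRNAs. Of 23 interferon signaling genes tested, 12 were called higher and 1 lower with shMPZL3 #1 (16.8% and 15.3% of all genes), and 9 higher and 0 lower with shMPZL3 #2 (9.36% and 5.8%). IRF1, an interferon-induced transcription factor, had 709.9 ± 124, 1317 ± 155 and 1289 ± 105 normalized counts in the scr control, shMPZL3 #1 and shMPZL3 #2. It rose with both and differed between the shRNAs by -0.03 (edgeR adjusted p = 0.907). The RNA sensor gene IFIH1 rose by 2.67 and 2.66, IRF7 by 1.14 and 2.38, and the RNA sensor gene TLR3 by 2.20 and 1.43. Between the shRNAs 3 of the 23 were called higher and 2 lower with shMPZL3 #2, where 7.56% of all genes were called in each direction. As shMPZL3 #2 minus shMPZL3 #1, IRF7 differed by 1.24 (edgeR adjusted p = 0.00377) and TLR3 by -0.77 (0.0154).

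Of 16 interferon-induced target genes, 12 were called higher with shMPZL3 #1 and 13 with shMPZL3 #2, and 0 lower with either. Between the shRNAs 3 were higher and 4 lower with shMPZL3 #2, and the median log2 difference was -0.24. IDO1, the tryptophan-degrading enzyme, had 239 ± 83.5, 2849 ± 975 and 582 ± 164 normalized counts, and was lower with shMPZL3 #2 than with shMPZL3 #1 by 2.29 (SE 0.25, edgeR adjusted p = 2.4e-05). TAP1, the peptide transporter of antigen presentation, rose by 2.21 and 1.99, and PSMB9, an immunoproteasome subunit, by 1.70 and 1.49, with no difference called between the shRNAs. SECTM1 rose by 1.79 and 1.14. Scr control replicate 1 was the lowest control for IDO1, TAP1, PSMB9 and SECTM1 as well. For TAP1 it had 400.2 normalized counts, against 769.7 and 769.9 in the other controls.

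Of 35 other chemokine genes 9 passed the filter, and 16 had 3 counts or fewer over all 9 libraries. With shMPZL3 #1, 5 were called higher and 1 lower, and with shMPZL3 #2, 5 higher and 0 lower. CXCL6, a further CXCR2 ligand of the chromosome 4 cluster, had 22.7 ± 13, 18.8 ± 5.9 and 78.5 ± 9.25 normalized counts, rose with shMPZL3 #2 by 1.80 (edgeR adjusted p = 0.00324) and was higher than with shMPZL3 #1 by 2.06 (adjusted p = 0.00132). CCL11, the eosinophil attractant eotaxin, had 2.92 ± 1.69, 3.17 ± 3.03 and 82.5 ± 28.5 and differed between the shRNAs by 4.65 (SE 0.54, adjusted p = 3.5e-05). CXCL12, the ligand of CXCR4, went the other way, with 103 ± 9.16, 377 ± 59.3 and 72.0 ± 23.8, and was lower with shMPZL3 #2 than with shMPZL3 #1 by 2.40 (SE 0.22). CXCL17 was lower with shMPZL3 #1 by 2.48 (adjusted p = 0.021), from 11.3 to 1.89 mean normalized counts.

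CXCR2, the receptor of the neutrophil attractants, and CXCR3, that of CXCL10 and CXCL11, were near 0 in these cells. CXCR2 had mean normalized counts of 0.443, 0.315 and 2.44 and CXCR3 of 0.917, 0.315 and 0.251 in the scr control, shMPZL3 #1 and shMPZL3 #2, and neither passed the filter. CXCR1 had 0 counts in every library. Of 22 chemokine receptor genes 5 passed it. CXCR4 rose with shMPZL3 #2 (1.34, edgeR adjusted p = 0.0234), CCR3 and XCR1 with shMPZL3 #1 (2.36 and 2.30, from 7.58 and 5.82 mean normalized counts), and ACKR2, a decoy receptor that clears CC chemokines, with both (0.91 and 0.50). Among receptors of the inducing cytokines 4 of 14 were called higher and 1 lower with shMPZL3 #1 and 4 higher and 0 lower with shMPZL3 #2, against the shares of all genes given above, with IFNGR1, which binds interferon gamma, called with both (0.88 and 0.47). TNFRSF1B rose with shMPZL3 #2 by 1.02, and IL17RA with shMPZL3 #1 by 0.64.

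AP-1 and C/EBP factors act with NF-kB at the CXCL8 promoter. Of 12 genes in a list of these factors together with EGR1 and HIF1A, 5 were called higher with each shRNA and 1, EGR1, lower with shMPZL3 #1. ATF3, a stress-induced factor, rose by 0.87 and 1.44 and CEBPD by 0.69 and 1.27, and both were higher with shMPZL3 #2 than with shMPZL3 #1 by 0.58 (edgeR adjusted p = 0.0118 and 0.0412). JUND rose by 0.72 and 0.78 and EGR1, at 467 ± 116, 275 ± 49.4 and 473 ± 49.6 normalized counts, was higher with shMPZL3 #2 by 0.78. Of 11 tested genes that act on chemokine mRNA decay, 3 were called higher and 2 lower with shMPZL3 #1 (16.8% and 15.3% of all genes). With shMPZL3 #2, 3 were called higher and 0 lower (9.36% and 5.8%). The list mixes genes that promote decay with genes that oppose it, so these counts give no direction for decay. ZFP36, which encodes a protein that destabilizes AU-rich transcripts, rose with shMPZL3 #1 by 0.49 (adjusted p = 0.00807) and was not called with shMPZL3 #2 (0.14, adjusted p = 0.51). ZFP36L1 rose by 0.94 and 0.77 and ZC3H12A, an RNase that cleaves cytokine mRNA, by 0.58 and 0.90, while HNRNPD fell by 0.48 with shMPZL3 #1.

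Of 10 tested genes for chemokine processing and binding, 5 were called higher and 1 lower with shMPZL3 #1, and 4 higher and 2 lower with shMPZL3 #2. DPP4, the peptidase that trims the amino terminus of CXCL10, had 1.52 ± 1.37, 30.1 ± 1.71 and 33.0 ± 0.48 normalized counts and rose with both (log2 fold changes 4.16 and 4.29, edgeR adjusted p = 8.44e-05 and 0.000106). SDC4, a heparan sulfate proteoglycan that binds chemokines, had 10232 ± 2221, 16363 ± 2065 and 25673 ± 784 and was higher with shMPZL3 #2 than with shMPZL3 #1 by 0.65 (SE 0.14, adjusted p = 0.00397). MMP2 rose with shMPZL3 #1 by 1.18 and MMP1 with shMPZL3 #2 by 3.19, the latter at 1.69 ± 2.16, 1.89 ± 3.28 and 15.4 ± 5.92 normalized counts.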

How the data were processed

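Poly-A RNA-seq without strand information was made from 9 libraries of OVCAR4 cells. Per the submitters' processing notes, HISAT2 2.0.5 and featureCounts 1.5.0-p3 were used with hg38. The counts deposited by the authors are raw and were neither normalized nor pooled over replicates; rows without a gene numbered 0. All 58735 genes matched GENCODE release 29 in identifier, position, name and merged exon length.

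Groups came from the sample labels. Counts were analyzed in R 4.3.3 with edgeR 4.0.16: filterByExpr (16928 genes kept, 99.8% to 99.9% of counts), TMM factors of 0.983 to 1.03, and 2-sided quasi-likelihood tests in 1 fit of all 3 groups, with the grouped comparison in a fit of its own. Benjamini-Hochberg adjustment was over the 16928 genes, and calls were made at 0.05. The test was checked only on counts simulated under its own model. No library was set apart there, so the check does not cover a control such as scr control replicate 1. RPKM and log2 CPM (prior count 2) were computed from the counts, and intervals for few counts are exact at 95% and cover counting error only. Promoters were searched with Python 3.11.15 and aligned with Biopython 1.88. Alternatives included DESeq2 1.42.0, the study's tool, RLE and upper-quartile scaling, other filters, a replicate block and leaving out each library.

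The members and gene lists were chosen with earlier results of these data known. Besides the 10 members, MPZL3 and the most similar genes, the genes named are up to 4 from each list with the largest called change against scr control, and pathway genes fixed by name (NFKBIA, TNFAIP3, RELB, IL1A, IL1B, TNF, IRF1, IFNB1, CXCR2, CXCR3 and ZFP36) whatever their values. CYLD, named as a single call, IFNE, HIF1A, CXCR1 and the markers named for being at 0 or for their level fall outside this rule. Protein sequences were not used here, and 1 gene that the rule names is not reported here.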

Additional observations from a re-analysis of the deposited data

Results flagged for a closer look

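The difference between the shRNAs was tested directly and passed for the 7 NF-kB driven chemokines, in all 3 against 3 libraries without overlap. Of all genes tested, 7.56% were called higher and 15.4% had every shMPZL3 #2 library above. CCL5 did not overlap either and was not called. As shMPZL3 #2 minus shMPZL3 #1 on the log2 scale, the difference was 3.78 for CCL20, 3.2 for CXCL5, 2.42 for CXCL8, 2.28 for CXCL3, 2.12 for CXCL1, 1.8 for CXCL2 and 1.5 for CCL2 (edgeR quasi-likelihood test). MPZL3 itself was higher with shMPZL3 #2 than with shMPZL3 #1, by 1.28, and the part of the knockdown level in the chemokine differences was not tested.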

How the results depend on the processing

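Of the values of single chemokines under other settings, 481 kept their direction and side of the threshold, 23 gained a call, 24 lost one and 3 reversed. The 3 were those of CXCL5, CXCL8 and CCL2 with shMPZL3 #1, at -0.16, -0.08 and -0.15 without scr control replicate 1 (highest 0.42, 0.49 and 0.35, without scr control replicate 2). The members called higher with shMPZL3 #1 went from 5 to 3 when a change of at least 1 on the log2 scale was also required, and ranged from 2 to 5 when 1 library was left out, with 3 without scr control replicate 1 or shMPZL3 #1 replicate 2 and 2 without shMPZL3 #1 replicate 3. The members called lower went from 0 to 1, CCL20, with no filter on low counts and without scr control replicate 1 (range 0 to 1). The grouped test called 10 members with no filter, 9 as the mean of both shRNAs, and 1 to 7 when 1 library was left out. Genes called fell from 5423 to 1242 (shMPZL3 #1), 2567 to 686 (shMPZL3 #2), 2559 to 539 (between shRNAs) and 2667 to 681 (grouped) with the fold limit, which keeps fewer genes by construction, and the mean of both shRNAs called 4677. Without 1 library they ranged from 1366 to 3055 for shMPZL3 #2 (1398 without scr control replicate 1, 1579 without replicate 2, 1366 without shMPZL3 #2 replicate 3), from 1469 to 2953 between shRNAs (1584 without shMPZL3 #1 replicate 3, 1647 and 1469 without shMPZL3 #2 replicate 1 and 3) and from 625 to 3237 grouped (625, 962 and 1238 without scr control replicate 1, 2 and 3). With a prior count of 0.5 the rise of the interferon driven mean went from 2.68 to 3.33 for shMPZL3 #2 and from 2.16 to 2.73 grouped, and the interferon element was matched in 0 of the 8 member promoters within 150 bases of the start. The RLE, upper-quartile and left-out settings of the list means were chosen after seeing the data, and of all counts and list means 237 were close to the reported value and 29 moved. Where no construction is named, the cause was not tested.

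Replicate numbers are shared between the groups, but the labels do not say that they mark a batch. Deviations of same-numbered libraries correlated with 0.22 at most and 0.00 at least. Between the shRNAs, same-numbered libraries correlated at 0.1 to 0.22 and the others at -0.15 to 0.00, so each library correlated best with its own number. Against the scr control this did not hold for every library. The main tests did not take the numbers as pairs, and whether they mark a batch was not tested. With the number as a replicate block, CCL20 was called lower with shMPZL3 #1 (-0.83, edgeR adjusted p = 0.0139; 1 member called lower) and CCL5 higher with shMPZL3 #2 than with shMPZL3 #1 (1.41, adjusted p = 0.02), and no other call of a member changed.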
